A study of Homo sapiens with 18 samples.

Results

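Zinc treatment of wild-type HEK293A cells was compared with water across all genes, in 6 of the 18 libraries of the study, chosen by their titles. HEK293A is a flat-growing derivative of the HEK293 line, which comes from human embryonic kidney. The zinc group held 3 libraries of wild-type cells given 250 uM ZnCl2 for 4 h, and the water group held 3 libraries of wild-type cells given water for 4 h. Levels of 3 libraries of wild-type cells given 50 uM CdCl2 for 4 h are given only where stated. A LATS1/2 double knockout of HEK293A, which lacks the main kinases of the Hippo pathway per its labels, had the same treatments for 4 h. Of its libraries, levels of the 3 in 250 uM ZnCl2 and the 3 in water are given where stated. Levels of the 3 in 50 uM CdCl2 are not given. All 18 libraries entered the low-count filter, the scaling factors and the estimate of spread behind each main test. It is not stated whether the knockout is 1 clone, so that the deletion and a clone's own traits cannot be told apart. The replicates are described as biological, but separate cultures or days are not stated, and the spread behind each p-value is that between libraries. Levels are given as CPM, counts scaled by library size and TMM factors, and differences as log2 fold changes, zinc over water, with a standard error approximated from the F statistic.

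Zinc is an essential metal that cells buffer with metallothioneins, small proteins that bind zinc through their cysteines, and move across membranes with SLC30 exporters and SLC39 importers. The transcription factor MTF1 binds metal response elements in promoters when zinc is in excess. Excess zinc also binds protein thiols, which is known to unfold proteins and to engage the heat shock, antioxidant and mitogen-activated protein kinase (MAPK) pathways.

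The 6 libraries held 25478614 to 34411038 counts. Among the zinc libraries replicate 3 differed most from the others. The chi-square per degree of freedom was 4.96 and 5.04 for its pairs, 1.88 between the other zinc libraries and 2.14 to 2.61 between water libraries, where 1 would be sampling noise. The 8 markers of the HEK293 line had a summed level of 864 to 982 CPM across zinc libraries and 810.1 to 839 CPM across water libraries, and the 7 of fibroblasts one of 11.94 to 14.98 CPM across zinc libraries and 12.97 to 14.26 CPM across water libraries. Of the HEK293 markers 3 stayed under 1 CPM in all 6 libraries, as did 4 of the fibroblast markers. Among the HEK293 markers VIM was called higher in zinc (log2 fold change 0.36) and NEFL lower (-0.92). The 6 keratinocyte markers stayed at 0.273 CPM or less in every library with KRT1 at 0, and the 6 blood cell markers at 2.39 CPM or less with HBB at 0. The 5 endothelial markers had a summed level between 2.47 and 4.26 CPM in zinc libraries and between 1.34 and 2.01 CPM in water libraries. Of these CLDN5 was called higher, and its part in other results was not tested.

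Over 4 h in zinc, most genes measured changed, and most of these by a small amount. Of 19393 genes tested, 11892 (61.3%) passed edgeR's quasi-likelihood test at a Benjamini-Hochberg adjusted p under 0.05. Of all tested genes 29.4% were called higher (5693 genes) and 32.0% were called lower (6199 genes). Changes of at least 2-fold were more often upward, with 1778 genes higher (9.17%) and 922 lower (4.75%), and this excess lay in genes under 1 CPM in water. Under 0.1 CPM in water there were 431 higher and 5 lower, and at 0.1 to 1 CPM 821 higher and 348 lower. Genes under 0.1 CPM in water are tested only when high in another group. Their counts thus describe the filter as well as the response. At 1 to 10 CPM there were 285 higher and 289 lower, and at 10 to 100 CPM 215 higher and 248 lower. At 4-fold or more there were 669 higher and 133 lower genes, and at 8-fold or more 293 and 19. The remaining 9192 called genes changed by less than 2-fold, and the median log2 fold change over all tested genes was -0.011. The levels of the 3 zinc and 3 water libraries did not overlap for 12297 genes.

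The genes at least 2-fold higher took a larger share of all reads in zinc. They held 7.80, 7.63 and 7.11% of counts in the zinc libraries, against 2.34, 2.32 and 2.35% in the water libraries. The 669 genes at least 4-fold higher held 2.79, 2.71 and 2.45% of counts in zinc and 0.274, 0.287 and 0.295% in water. The 922 genes at least 2-fold lower held 0.586, 0.603 and 0.609% in zinc and 1.56, 1.58 and 1.58% in water. Each of these sets was chosen by the same values, so the shares describe the size of the change and are not tested.

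**Figure D1:**
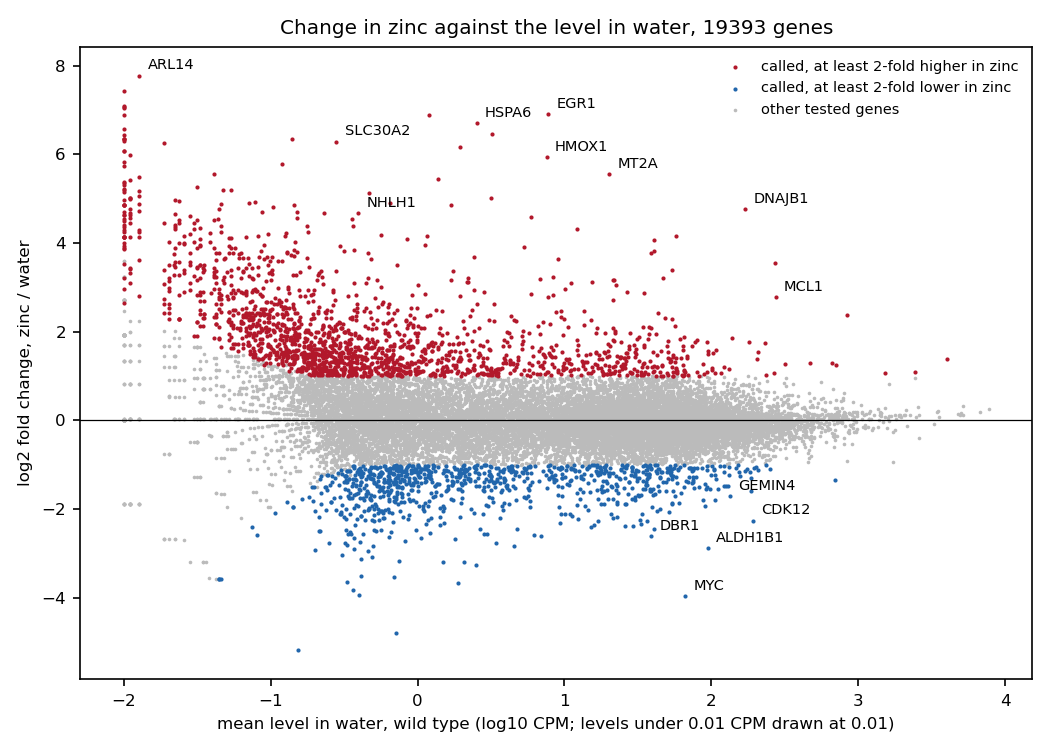
Log2 fold change, zinc over water, against the mean level in water (log10 CPM) for every tested gene, with red and blue points for genes called and at least 2-fold higher or lower. The 1778 red points are most dense below 1 CPM in water, and of the 934 genes under 0.1 CPM in water 431 are red and 5 are blue. Genes under 0.1 CPM in water are tested only when high in another group.

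Among called genes with a mean of at least 5 CPM and no overlap between groups, the 4 highest log2 fold changes were those of EGR1, FOS, HSPA6 and MT1X. EGR1 (ENSG00000120738, chr5:138465490-138469315), an immediate early zinc finger transcription factor, was at 929, 927 and 954 CPM in the zinc libraries, against 7.71, 7.098 and 8.37 CPM in the water libraries. Its log2 fold change was 6.92 ± 0.071 (edgeR adjusted p = 1.84e-42). MT1X (ENSG00000187193, chr16:56682424-56684196), a metallothionein, was at 296, 304 and 265 CPM in the zinc libraries, against 2.53, 3.202 and 3.88 CPM in the water libraries, all zinc libraries lying far above all water libraries. HSPA6 (ENSG00000173110, chr1:161524540-161526910), a strictly inducible HSP70 chaperone, was at 329, 303 and 202 CPM in the zinc libraries, against 1.42, 2.28 and 3.88 CPM in the water libraries. Zinc replicate 3 was the lowest of its group for HSPA6, and the water libraries differed among themselves by over 2-fold. SLC30A2 (ENSG00000158014, chr1:26037252-26046133), an exporter that loads zinc into vesicles, was at 23.9, 25.2 and 18.3 CPM in the zinc libraries, against 0, 0.726 and 0.113 CPM in the water libraries. No reads of it fell in 1 water library, and the log2 fold change was 6.29 ± 0.21.

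Promoter stretches of EGR1, MT1X, HSPA6 and SLC30A2 are shown because each holds letters of a known element for a stress pathway. They come from RefSeq (GRCh38.p14), run 5′ to 3′ on the strand of the gene and end at or before its annotated start. Capitals mark the metal response element core (TGCACNC or TGCGCNC) in MT1X and SLC30A2, the heat shock element pair (GAANNTTC or TTCNNGAA) in HSPA6, and CArG boxes, the sites of serum response factor, in EGR1, on either strand.
MT1X, chr16:56682270-56682423, forward strand: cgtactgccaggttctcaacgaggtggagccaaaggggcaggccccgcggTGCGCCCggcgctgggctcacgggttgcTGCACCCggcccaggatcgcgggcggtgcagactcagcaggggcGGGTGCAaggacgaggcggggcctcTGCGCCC
SLC30A2, chr1:26046134-26046318, reverse strand: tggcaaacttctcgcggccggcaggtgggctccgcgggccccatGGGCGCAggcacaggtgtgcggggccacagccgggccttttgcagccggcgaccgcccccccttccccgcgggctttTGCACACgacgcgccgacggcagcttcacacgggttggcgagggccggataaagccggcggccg
HSPA6, chr1:161524340-161524539, forward strand: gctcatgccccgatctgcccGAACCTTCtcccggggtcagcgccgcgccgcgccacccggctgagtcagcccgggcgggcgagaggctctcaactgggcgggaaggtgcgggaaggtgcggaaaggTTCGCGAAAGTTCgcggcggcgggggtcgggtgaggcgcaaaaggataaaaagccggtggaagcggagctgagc
EGR1, chr5:138465279-138465478, forward strand: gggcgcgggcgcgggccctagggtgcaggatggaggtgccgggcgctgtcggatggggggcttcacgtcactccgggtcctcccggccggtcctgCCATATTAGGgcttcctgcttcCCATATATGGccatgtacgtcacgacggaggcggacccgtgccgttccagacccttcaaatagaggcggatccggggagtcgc
The MT1X stretch holds 4 metal response element cores and that of SLC30A2 holds 2. The HSPA6 stretch holds 3 heat shock element pairs, of which those at -74 and -69 from the RefSeq start overlap, and the EGR1 stretch holds 2 CArG boxes. A match is a description of letters and does not show binding.

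Other genes among the 15 with the highest log2 fold change included FOS, FOSB, EGR2 and ZFP36 of the immediate early class, the small MAF factor MAFF, heme oxygenase HMOX1 and the metallothionein MT2A. KIAA1324 (ENSG00000116299, chr1:109113679-109206781), also named ELAPOR1, a transmembrane protein of endosomes and lysosomes, was at 12.2, 10.6 and 12.7 CPM in the zinc libraries, against 0.115, 0.165 and 0.142 CPM in the water libraries. It was near the detection limit in water and above 10 CPM in every zinc library. CHAC1, which degrades glutathione, was at 50.2, 44.7 and 53.8 CPM in the zinc libraries, against 1.57, 1.45 and 2.04 CPM in the water libraries, a log2 fold change of 4.85 ± 0.096. NHLH1, a neuronal basic helix-loop-helix factor, was at 9.93, 8.13 and 12.4 CPM in the zinc libraries, against 0.499, 0.264 and 0.425 CPM in the water libraries. HMOX1 was at 542, 524 and 326 CPM in the zinc libraries, against 6.79, 7.79 and 8.08 CPM in the water libraries, with zinc replicate 3 well below the other zinc libraries. Without that replicate the log2 fold change of HMOX1 was 6.13, against 5.93 with it.

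The 15 genes with the lowest log2 fold change were a varied group of transcription factors, receptors, RNA enzymes and metabolic genes. MYC, the transcription factor that drives growth genes, was at 4.68, 4.302 and 3.81 CPM in the zinc libraries, against 64.2, 70.1 and 65.3 CPM in the water libraries. It had the lowest log2 fold change of the eligible genes, -3.96 ± 0.071 (edgeR adjusted p = 2.89e-34). ALDH1B1 (ENSG00000137124, chr9:38392664-38398661), a mitochondrial aldehyde dehydrogenase, was at 11.9, 13.6 and 12.8 CPM in the zinc libraries, against 93.7, 94.8 and 95.4 CPM in the water libraries. DBR1 (ENSG00000138231, chr3:138161012-138174949), the enzyme that opens intron lariats after splicing, was at 5.52, 6.83 and 6.8 CPM in the zinc libraries, against 37.8, 40.01 and 38.9 CPM in the water libraries. In each of these genes the spread within a group was small beside the gap between the groups. DMRT3, a transcription factor of spinal interneurons, was at 7.29, 6.76 and 8.004 CPM in the zinc libraries, against 42.8, 39.8 and 38.9 CPM in the water libraries. HILPDA, an inhibitor of lipid droplet lipolysis, was at 2.98, 2.53 and 2.93 CPM in the zinc libraries, against 17.6, 14.1 and 13.6 CPM in the water libraries. For all genes named by this rule, groups that do not overlap were a condition of being named. KCNJ8, the pore subunit of an ATP-sensitive potassium channel, was at 2.71, 3.41 and 3.12 CPM in the zinc libraries, against 16, 16.6 and 15 CPM in the water libraries. GAS1, a coreceptor for Hedgehog ligands, was at 6.17, 5.26 and 5.499 CPM in the zinc libraries, against 28.6, 30.1 and 29.7 CPM in the water libraries. MFSD5, MRM1, FKBPL, IMP3, RNF122, HEY1 and FZD2 had log2 fold changes between -2.22 and -2.39. MRM1 methylates mitochondrial ribosomal RNA and IMP3 belongs to the U3 small nucleolar ribonucleoprotein.

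**Figure D2:**
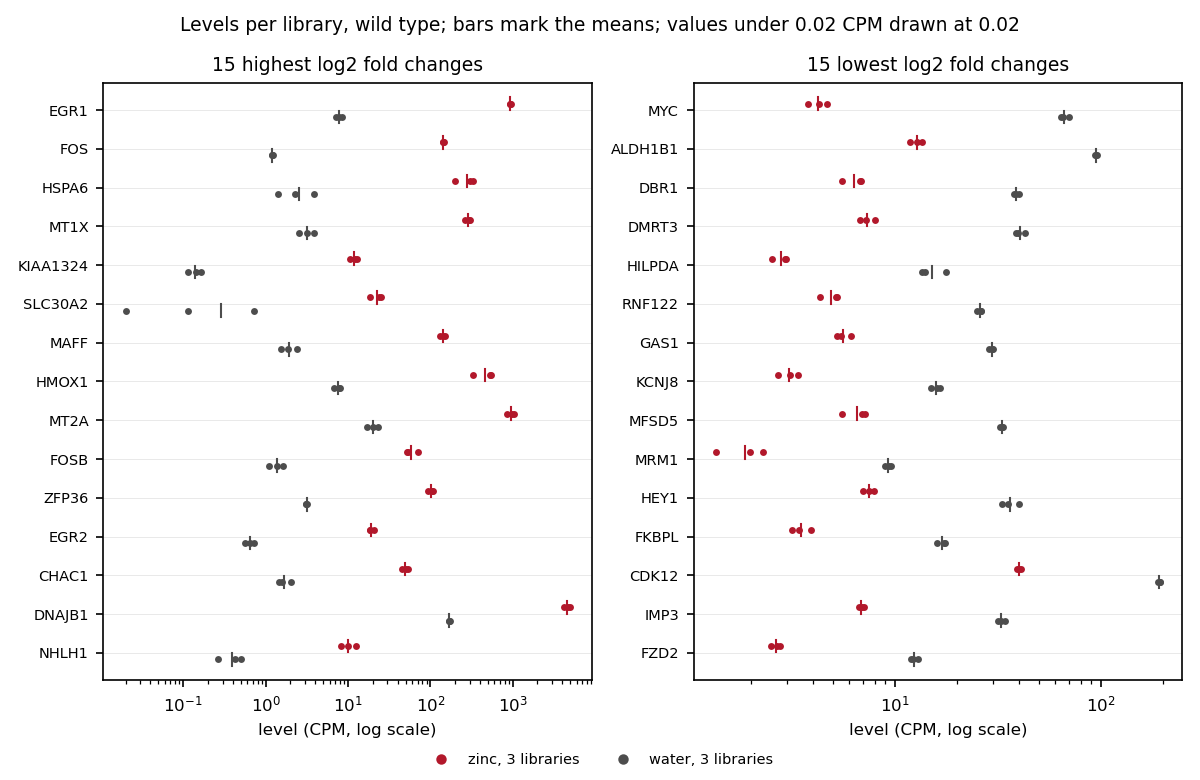
Level in each library (CPM, log scale) of the 15 genes with the highest (left) and the 15 with the lowest (right) log2 fold change, with zinc libraries in red above water libraries in grey and bars at the group means. No gene shows an overlap of the groups, which was part of the rule that chose them, and zinc replicate spread is wide for HSPA6 and HMOX1.

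The 8 highest log2 fold changes among eligible genes with at least 100 CPM in water were those of DNAJB1, HSPH1, MCL1, HSPA1B, SQSTM1, CHORDC1, NEAT1 and XBP1. DNAJB1 (ENSG00000132002, chr19:14514770-14529770), an HSP40 that activates HSP70, was at 4928, 4739 and 4168 CPM in the zinc libraries, against 169, 171 and 169 CPM in the water libraries. HSPH1, a nucleotide exchange factor of HSP70, was at 3376, 3080.0 and 3075 CPM in the zinc libraries, against 262, 266 and 282 CPM in the water libraries. MCL1, which blocks apoptosis at mitochondria, was at 1917, 1983 and 1715 CPM in the zinc libraries, against 276, 269 and 278 CPM in the water libraries. Their log2 fold changes were 4.76 ± 0.045, 3.56 ± 0.038 and 2.77 ± 0.035, with replicate 3 the lowest zinc library for each of them. HSPA1B, an inducible HSP70 nearly identical to HSPA1A and counted with that uncertainty, was at 4350.0 ± 320.1 CPM in zinc and 838 ± 75.5 CPM in water (mean ± SD, n = 3 each). CHORDC1, an HSP90 cochaperone with zinc-binding domains, was at 617 ± 16.5 CPM in zinc and 181 ± 3.85 CPM in water. SQSTM1, the autophagy receptor p62, was at 502 ± 16.1 CPM in zinc and 139 ± 0.8998 CPM in water. XBP1, a transcription factor of the unfolded protein response, was at 325 ± 7.26 CPM in zinc and 108 ± 6.48 CPM in water. All 3 rose, with log2 fold changes of 1.77, 1.85 and 1.59. NEAT1, the noncoding RNA that scaffolds paraspeckles, was at 838, 878 and 594 CPM in the zinc libraries, against 250.2, 242 and 202 CPM in the water libraries, and its log2 fold change was 1.89 without replicate 3 and 1.74 with it.

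Among the same abundant genes the largest decrease was that of CDK12 (ENSG00000167258, chr17:39461511-39564907), a kinase that phosphorylates the tail of RNA polymerase II during elongation, at 39.03, 41.1 and 40.1 CPM in the zinc libraries, against 189.8, 193 and 193 CPM in the water libraries. Its log2 fold change was -2.26 ± 0.043 (edgeR adjusted p = 1.52e-33). CENPB, which binds centromeric DNA, was at 29.5, 30.8 and 30.3 CPM in the zinc libraries, against 103, 106 and 107 CPM in the water libraries. GEMIN4, a subunit of the SMN complex that assembles spliceosomal ribonucleoproteins, was at 40.8, 45.1 and 37.4 CPM in the zinc libraries, against 132, 134 and 136 CPM in the water libraries. URB2, a ribosome biogenesis protein, was at 34.3, 39.6 and 40.6 CPM in the zinc libraries, against 109.5, 114 and 111 CPM in the water libraries. That the groups lay apart for these 4 genes was part of the rule that chose them. ZNF503, KCTD12, TMEM250 and TSPYL1 had log2 fold changes of -1.58 to -1.48.

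A further set was close to absent in water. Of 934 genes under 0.1 CPM in water 431 (46.1%) were called and at least 2-fold higher and 5 (0.535%) at least 2-fold lower, against 9.17% and 4.75% of all tested genes. A gene this low in water is tested only when it is high in another group, so the share describes the filter as well as the response. ARL14, a small GTPase, had 292 reads over the zinc libraries and 1 over the water libraries, a ratio of 298.8 after scaling (95% counting interval 53.2 to 11840.0). AREG, an EGF receptor ligand, had 212 reads in zinc and 8 in water, a ratio of 27.1 (13.5 to 63.6). INHBA, the subunit of activin A, had 193 reads in zinc and 5 in water, a ratio of 39.5 (16.6 to 123). These intervals cover counting error only. SPDEF, an ETS factor of secretory epithelia, had 157 reads in zinc and 4 in water. CLIP4 had 248 reads in zinc and 8 in water, and CNTD2 had 169 in zinc and 9 in water. HSPA7, a copy of HSPA6 whose reads may be shared with it, had 201 and 4 reads. OR5BA1P, an olfactory receptor pseudogene, had 176 and 2 reads and was not among the genes tested on the strand-specific column.

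Secreted growth factors and cytokines were more often higher than lower in zinc. Here and in the lists below, member counts stand beside 29.4% called higher and 32.0% called lower among all tested genes. A list near these shares behaved as genes in general did. Of 29 tested members 18 rose, 15 of them by at least 2-fold (51.7%, against 9.17% of all tested genes), and 4 fell. The median log2 fold change was 1.20 where all tested genes had -0.011. Members averaging under 0.1 CPM in water, such as INHBA here and AREG below, are tested only when high in another group. INHBA was at 2.85, 2.22 and 1.43 CPM in the zinc libraries, against 0.0384, 0.06603 and 0.0567 CPM in the water libraries. BDNF, a neurotrophin, was at 17.3, 18.1 and 15.7 CPM in the zinc libraries, against 4.797, 5.45 and 5.19 CPM in the water libraries. TNFSF9, the ligand of the costimulatory receptor 4-1BB, was at 13.9, 14.9 and 15.9 CPM in the zinc libraries, against 2.99, 2.97 and 3.26 CPM in the water libraries. In all 3 genes the groups were apart, and zinc replicate 3 was the lowest of its group for INHBA and BDNF. INHBE, another activin subunit, was at 3.79 ± 0.5002 CPM in zinc and 0.865 ± 0.1304 CPM in water. FGF9 and LIF did not pass, with log2 fold changes of -0.18 ± 0.093 and 0.23 ± 0.12. Without zinc replicate 3 the list held 17 higher and 5 lower genes. Over the main and alternative settings 10 to 19 members rose, and 7 to 16 rose by at least 2-fold.

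Ligands of the EGF receptor family were among the raised factors. Of 11 tested EGF family genes 6 rose and 2 fell, with a median of 0.33. HBEGF, a membrane-anchored ligand released by shedding, was at 90.2, 89.4 and 57.3 CPM in the zinc libraries, against 10.1, 10.5 and 9.67 CPM in the water libraries. AREG was at 2.37, 3.005 and 1.76 CPM in the zinc libraries, against 0.0384, 0.165 and 0.0567 CPM in the water libraries. EGF was at 5.05 ± 0.825 CPM in zinc and 1.92 ± 0.07003 CPM in water and NRG1 at 1.99 ± 0.218 CPM in zinc and 1.03 ± 0.112 CPM in water. HBEGF lay lower in zinc replicate 3 than in the other zinc libraries, and its log2 fold change without that replicate was 3.15, against 2.97 with it. EGFR, the receptor, was at 59.2 ± 3.54 CPM in zinc and 57.8 ± 1.44 CPM in water and did not pass (edgeR adjusted p = 0.547). Leaving out zinc replicate 3 left 5 higher genes and 1 lower gene. Over the main and alternative settings 4 to 6 EGF family genes rose.

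Phosphatases and adaptors that restrain MAPK signalling moved in both directions. Of 16 listed DUSP phosphatases, which dephosphorylate MAPKs and related substrates, 8 rose and 5 fell, 6 and 2 of them by at least 2-fold. Their median was 0.071. The 23 tested genes with DUSP symbols had 8 higher and 8 lower, 6 and 3 by at least 2-fold, and a median of 0.0. DUSP8, which acts on JNK and p38, was at 83.1, 74.8 and 81.01 CPM in the zinc libraries, against 7.67, 7.86 and 9.58 CPM in the water libraries. DUSP5, a nuclear phosphatase of ERK, was at 20.9, 19.5 and 16.8 CPM in the zinc libraries, against 2.34, 2.31 and 1.96 CPM in the water libraries. DUSP10 was at 6.33 ± 0.394 CPM in zinc and 1.21 ± 0.197 CPM in water and DUSP2 at 21.8 ± 1.87 CPM in zinc and 4.55 ± 0.0825 CPM in water. Each of the 4 rose with no overlap of groups. DUSP4, another nuclear phosphatase of this class, fell to 11.5, 10.6 and 11.4 CPM in zinc, against 44.5, 45.3 and 44.04 CPM in water. DUSP6, a cytoplasmic phosphatase of ERK, was at 1.16 ± 0.0829 CPM in zinc and 1.44 ± 0.128 CPM in water and did not pass. Of 19 other RAS-MAPK feedback genes 13 rose and 3 fell, with a median of 0.52. SPRED3 was at 4.46 ± 1.55 CPM in zinc and 1.05 ± 0.188 CPM in water, RGS16 at 117 ± 4.22 CPM in zinc and 31.9 ± 1.18 CPM in water and ERRFI1, an inhibitor of EGFR, at 148 ± 28.3 CPM in zinc and 50.6 ± 3.08 CPM in water. SPRY1, a Sprouty inhibitor of receptor signalling, went the other way, at 6.95, 6.59 and 8.52 CPM in the zinc libraries, against 21.3, 20.1 and 21.4 CPM in the water libraries. NF1, the RAS GTPase activator, did not pass, with a log2 fold change of -0.052.

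**Figure D3:**
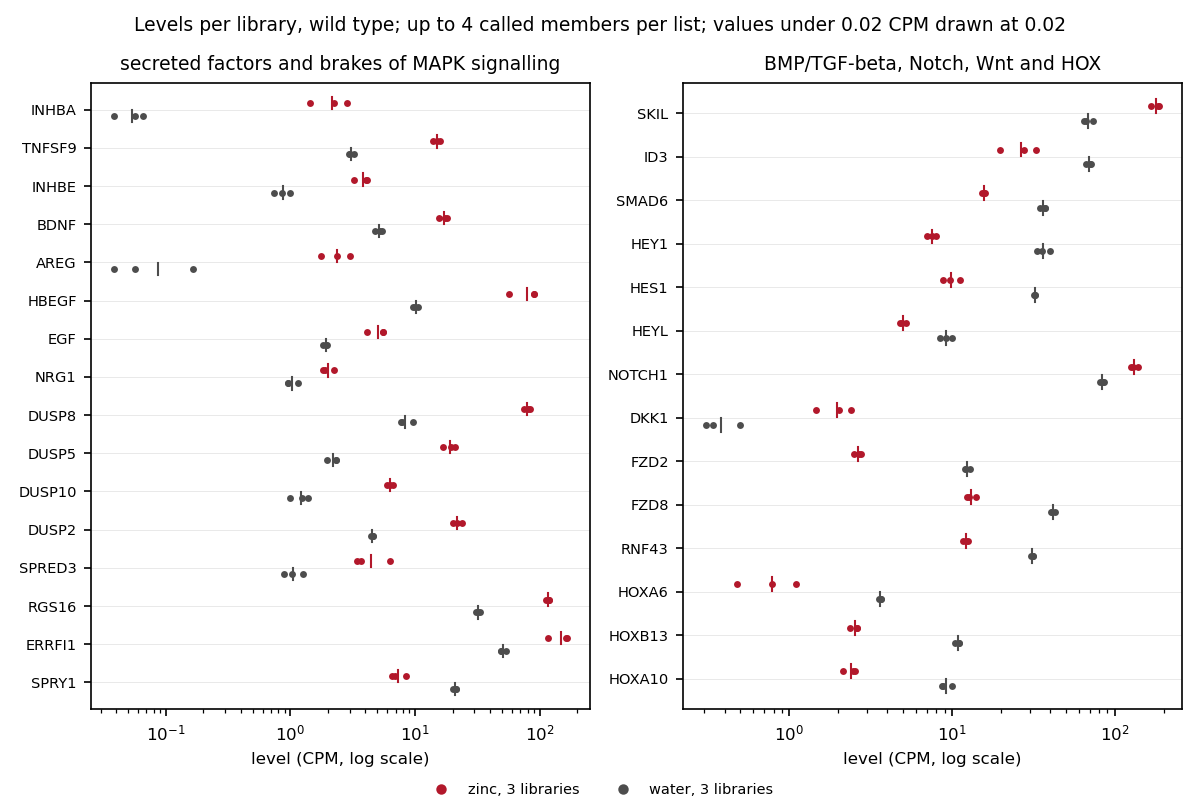
Level in each library (CPM, log scale) of up to 4 called members per list, with zinc in red above water in grey and bars at the group means. On the left, growth factors, EGF family, DUSP and feedback genes lie higher in zinc except SPRY1, and on the right most BMP/TGF-beta, Notch, Wnt and HOX genes shown lie lower in zinc, with SKIL, NOTCH1 and DKK1 higher.

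Several KLF factors and the NR4A nuclear receptors, which respond early to stimuli, were raised. Of 18 KLF and SP factors 9 rose and 5 fell, with 4 at least 2-fold higher and none at least 2-fold lower. KLF6 was at 262, 247 and 184 CPM in the zinc libraries, against 42.8, 43.3 and 43.1 CPM in the water libraries, and its log2 fold change was 2.42 ± 0.069. KLF4, a factor also used in reprogramming, was at 38.96, 36.4 and 32.8 CPM in the zinc libraries, against 7.56, 7.92 and 8.31 CPM in the water libraries. KLF5 was at 54.6 ± 6.23 CPM in zinc and 18.6 ± 0.348 CPM in water and KLF2 at 2.81 ± 0.206 CPM in zinc and 0.893 ± 0.143 CPM in water. The groups did not overlap for these 4 genes, and zinc replicate 3 was the lowest of its group for each. SP3 and KLF3 did not pass. Of 29 nuclear receptors and coregulators 12 rose and 9 fell, and with library size alone 12 rose and 12 fell. The 9 that fell were a share near the 32.0% of all tested genes called lower. The orphan receptor NR4A1 was at 47.4 ± 5.74 CPM in zinc and 8.73 ± 0.446 CPM in water, NR4A3 at 6.16 ± 0.387 CPM in zinc and 1.58 ± 0.216 CPM in water and NR4A2 at 7.87 ± 0.457 CPM in zinc and 2.96 ± 0.736 CPM in water. NR2F1, a regulator of development, fell to 16.03 ± 1.95 CPM in zinc, against 37.4 ± 0.726 CPM in water.

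In the MYC and MAX network members moved both ways. Of 13 tested genes 4 rose and 7 fell. MXD1, which dimerises with MAX and opposes MYC, was at 190.4, 185 and 188 CPM in the zinc libraries, against 22.8, 21.4 and 23.1 CPM in the water libraries. Its log2 fold change was 3.06 ± 0.041 (edgeR adjusted p = 9.04e-39), opposite in sign to that of MYC. MLX, a partner of glucose-sensing factors, fell to 53.8 ± 1.81 CPM in zinc, against 77.1 ± 3.29 CPM in water, and MXD4 and MYCL did not pass. Of 18 circadian clock genes 8 rose and 6 fell, with 3 at least 2-fold higher, and without zinc replicate 3 the counts were 7 and 7. NFIL3 was at 28.4 ± 4.32 CPM in zinc and 9.69 ± 0.276 CPM in water, RORA at 22.01 ± 1.32 CPM in zinc and 8.05 ± 0.763 CPM in water and ARNTL, a core activator of the clock, at 15.97 ± 0.352 CPM in zinc and 7.14 ± 0.796 CPM in water. DBP, an output factor that opposes NFIL3, fell to 6.28 ± 0.938 CPM in zinc, against 10.9 ± 0.0712 CPM in water, and PER2 did not pass. Of 26 FOX factors 12 rose and 7 fell, 2 of them at least 2-fold higher, including FOXO3 among the smaller changes at 103 ± 4.204 CPM in zinc and 60.99 ± 0.656 CPM in water.

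HOX genes were mostly lower. Of 35 tested HOX genes, which set position along the body axis, 23 fell and 2 rose, 11 of them at least 2-fold lower (31.4%, against 4.75% of all tested genes), with a median log2 fold change of -0.62. On the strand-specific counts 7 were at least 2-fold lower. HOXB13 was at 2.61, 2.595 and 2.38 CPM in the zinc libraries, against 11.1, 11.1 and 10.5 CPM in the water libraries. HOXA6 was at 0.474, 1.09 and 0.781 CPM in the zinc libraries, against 3.57, 3.66 and 3.66 CPM in the water libraries. The groups were apart for both, at low levels. HOXA10 was at 2.13, 2.53 and 2.47 CPM in the zinc libraries, against 8.67, 10.04 and 8.85 CPM in the water libraries, but on the strand-specific column its log2 fold change was -0.62 and it did not pass (edgeR adjusted p = 0.0999). HOXB9 and HOXC8 did not pass, with 0.054 ± 0.054 and -0.037 ± 0.076. Of 26 SOX, PAX, LHX and related developmental factors 13 fell and 6 rose. SOX12, a factor of the SOXC group, was at 22.8, 21.7 and 24.9 CPM in the zinc libraries, against 63.97, 67.1 and 65.7 CPM in the water libraries. SIX5, SOX3 and SOX21 had log2 fold changes of -1.45, -1.31 and -1.26, and EYA4 and SIX4 did not pass.

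Notch, Wnt and BMP signalling genes were more often lower than higher. Of 19 Notch genes 9 fell and 5 rose, the latter a share near the 29.4% of all tested genes called higher. The targets HEY1 and HES1, both repressors induced by Notch, were at 7.96, 7 and 7.55 CPM in the zinc libraries, against 35.6, 40.1 and 33.3 CPM in the water libraries for HEY1 and 9.66, 11.2 and 8.85 CPM in the zinc libraries, against 32.3, 31.8 and 32.4 CPM in the water libraries for HES1. HEYL fell to 4.99 ± 0.2 CPM in zinc, against 9.19 ± 0.783 CPM in water, whereas the receptor gene NOTCH1 rose to 131 ± 6.87 CPM in zinc, against 83.7 ± 2.51 CPM in water. HEY2 did not pass. Of 29 Wnt genes 17 fell and 4 rose (2 without zinc replicate 1), with 5 at least 2-fold lower and 1 at least 2-fold higher. The Wnt receptors FZD2 and FZD8 were at 2.68, 2.77 and 2.505 CPM in the zinc libraries, against 11.9, 12.97 and 12.2 CPM in the water libraries for FZD2 and 14.03, 12.4 and 12.6 CPM in the zinc libraries, against 42.6, 40.7 and 41.1 CPM in the water libraries for FZD8. RNF43, which removes Wnt receptors from the surface, was at 12.1 ± 0.452 CPM in zinc and 31.1 ± 0.455 CPM in water. DKK1, a secreted Wnt inhibitor, rose to 1.96 ± 0.473 CPM in zinc, against 0.381 ± 0.1004 CPM in water. AXIN1 and APC, scaffolds that destroy beta-catenin, did not pass.

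Of 24 BMP, TGF-beta and ID genes 12 fell and 6 rose, 5 and 3 of them by at least 2-fold. ID3, a BMP target that blocks helix-loop-helix factors, was at 27.6, 32.5 and 19.7 CPM in the zinc libraries, against 70.3, 66.1 and 70.9 CPM in the water libraries, and SMAD6, an inhibitory SMAD, was at 15.6 ± 0.2998 CPM in zinc and 36.2 ± 1.49 CPM in water. SKIL, a repressor of SMAD signalling, rose to 179.9 ± 11.01 CPM in zinc, against 68.3 ± 4.72 CPM in water. TGFB1 did not pass. Of 21 Eph receptors and ephrins 6 rose and 6 fell, with EPHA4 at 38.5 ± 0.787 CPM in zinc and 18.3 ± 1.199 CPM in water and EFNA4 at 0.932 ± 0.332 CPM in zinc and 3.79 ± 0.488 CPM in water. Of 36 cadherins and protocadherins 14 fell and 5 rose. PCDHB8, PCDHAC2, PCDHB16 and PCDH18 had log2 fold changes of -1.41, -1.32, -1.21 and -1.12, at levels of a few CPM.

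**Figure D4:**
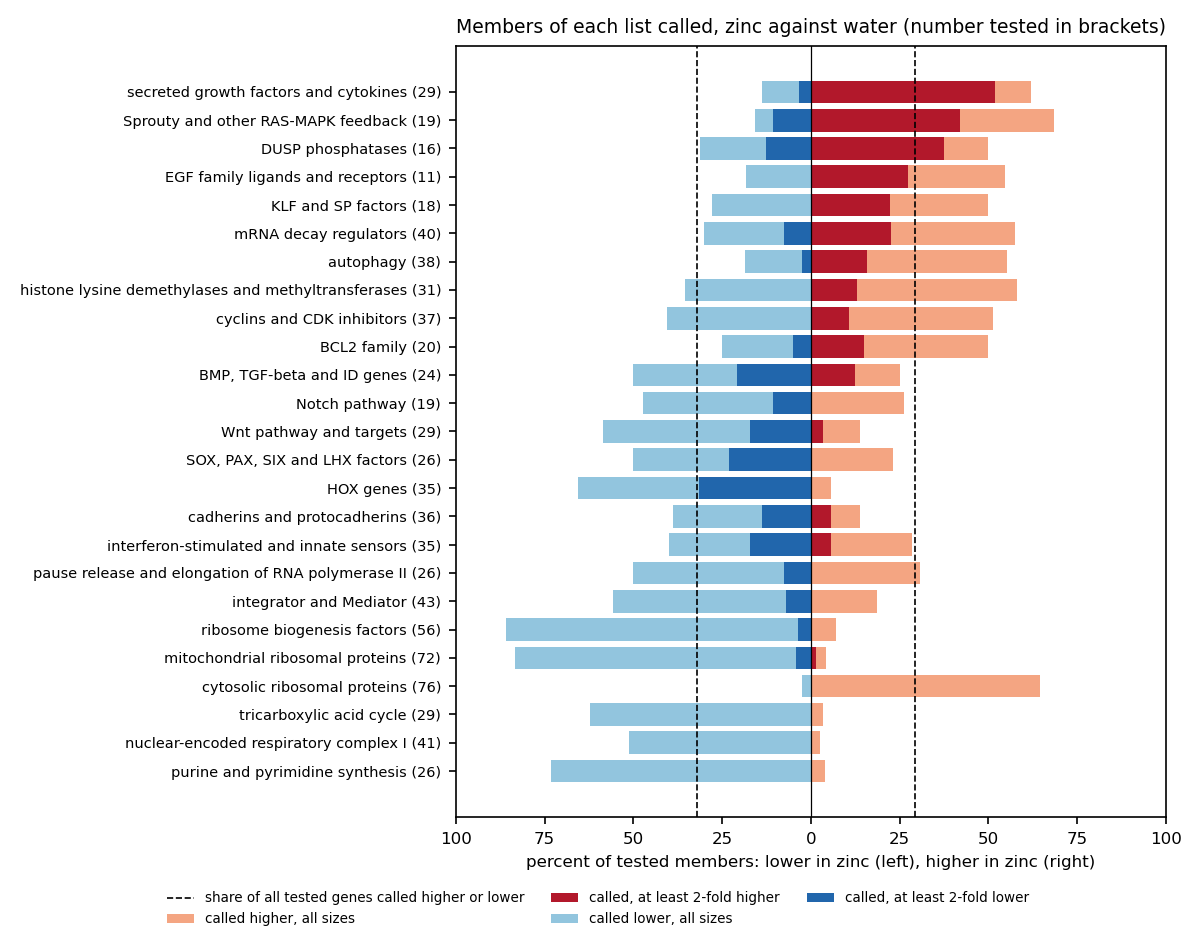
Percent of the tested members of 25 lists called lower (left of 0) and higher (right of 0) in zinc, with the darker part at least 2-fold and dashed lines at the shares of all tested genes called lower (32.0%) and higher (29.4%). Growth factors, feedback genes and mRNA decay genes lie to the right, and HOX genes, ribosome biogenesis and mitochondrial ribosomal proteins to the left.

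Among chromatin genes most tested replication-dependent histones were raised. Replication-dependent histones, whose mRNAs normally lack a poly(A) tail, were higher for 18 of 20 tested genes, 16 by at least 2-fold, with a median log2 fold change of 2.02. HIST1H4H was at 17.2, 17 and 18.7 CPM in the zinc libraries, against 1.07, 1.32 and 0.992 CPM in the water libraries and HIST1H2BN was at 20.3 ± 0.844 CPM in zinc and 2.19 ± 0.232 CPM in water. TruSeq mRNA kits select poly(A) RNA, and histone copies share sequence, so these values are uncertain. Of 31 histone lysine demethylases and methyltransferases 18 rose and 11 fell, with 4 at least 2-fold higher. KDM6B, which removes the repressive H3K27 methyl mark, was at 73.4, 73.1 and 64.8 CPM in the zinc libraries, against 16.2, 17.7 and 16.3 CPM in the water libraries. KDM7A was at 39.4 ± 4.56 CPM in zinc and 14.04 ± 1.56 CPM in water, JMJD1C at 187 ± 11.1 CPM in zinc and 68.1 ± 1.49 CPM in water and JMJD6 at 90.4 ± 5.17 CPM in zinc and 39.5 ± 0.288 CPM in water. These are the called members with the largest change in the list, and the 19 tested genes with KDM symbols had 9 higher, 7 lower and a median of -0.070. Of 28 acetylation enzymes and readers 9 rose and 13 fell, against 10 and 9 with the 6 libraries fitted alone, with SIRT1, a deacetylase, at 105 ± 2.59 CPM in zinc and 50.03 ± 2.26 CPM in water.

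Genes of RNA polymerase II transcription were more often lower than higher. Of 26 pause release and elongation genes 13 fell and 8 rose, against 32.0% called lower and 29.4% called higher of all tested genes. The share that rose was thus near that of genes in general. The largest change was that of CDK12 described above. MEPCE, which caps and stabilises the 7SK RNA, was at 46.99, 41.3 and 46.8 CPM in the zinc libraries, against 106, 105 and 104 CPM in the water libraries, and CTR9 and LEO1 of the PAF complex had log2 fold changes of -0.91 and -0.86. SUPT5H, a pausing factor, did not pass. Of 43 Integrator and Mediator subunits 24 fell and 8 rose. INTS5, an Integrator subunit, was at 11.6, 14.2 and 11.5 CPM in the zinc libraries, against 51.7, 52.6 and 50.8 CPM in the water libraries. MED1, the Mediator subunit that binds nuclear receptors, was at 52.8, 56.03 and 61.7 CPM in the zinc libraries, against 135, 129.5 and 133 CPM in the water libraries. Both fell with no overlap. Of 24 CLK kinases and SR splicing factors 9 rose and 11 fell, and none reached 2-fold. CLK2 fell to 38.3 ± 2.09 CPM in zinc, against 68.3 ± 4.61 CPM in water and the related kinase DYRK1A rose to 82.9 ± 0.403 CPM in zinc, against 46.4 ± 0.943 CPM in water. Of 25 hnRNP proteins 7 rose and 13 fell, again without a 2-fold change.

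Genes of mRNA decay were raised more often than lowered. Of 40 tested members 23 rose and 12 fell, 9 and 3 by at least 2-fold, with 1 lower by this much without water replicate 2. ZFP36 (ENSG00000128016, chr19:39406813-39409412), which binds AU-rich elements and recruits deadenylases, was at 107, 103 and 94.6 CPM in the zinc libraries, against 3.11, 3.14 and 3.204 CPM in the water libraries. Its log2 fold change was 5.01 ± 0.074 (edgeR adjusted p = 3.37e-37). ZC3H12A, an endonuclease that cleaves inflammatory mRNAs, was at 18.1 ± 2.06 CPM in zinc and 5.22 ± 0.469 CPM in water, and BTG3, a deadenylase cofactor, was at 86.9 ± 0.932 CPM in zinc and 30.6 ± 0.464 CPM in water. The deadenylase subunits CNOT6 and CNOT3 did not pass. DBR1, which also belongs to this list, fell as given above.

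Ribosome production genes were lowered by small amounts while cytosolic ribosomal proteins were slightly higher. Of 56 ribosome biogenesis factors 48 fell and 4 rose, only 2 of them by at least 2-fold, with a median of -0.28. RRS1, a factor of the large subunit, was at 16.03, 16.01 and 17.9 CPM in the zinc libraries, against 57.3, 59 and 64.1 CPM in the water libraries. POLR1B, the second largest subunit of RNA polymerase I, was at 49.98, 54.1 and 58.3 CPM in the zinc libraries, against 124, 117 and 124 CPM in the water libraries. DDX21 and GNL2 did not pass, with log2 fold changes of 0.067 and -0.012. Of 76 cytosolic ribosomal protein genes 49 rose and 2 fell (1 without zinc replicate 3 or without water replicate 1), none by 2-fold, with a median of 0.11, and with library size alone 31 rose and 7 fell. RPL37 was at 1317, 1305 and 1314 CPM in the zinc libraries, against 1057, 990.2 and 1072 CPM in the water libraries, and RPS24 and RPL9 had log2 fold changes of 0.28 and 0.27. Of 72 mitochondrial ribosomal proteins 60 fell and 3 rose (1 without water replicate 2), with a median of -0.28. MRPL34 was at 15.5 ± 0.454 CPM in zinc and 43.5 ± 2.103 CPM in water, MRPL46 at 5.35 ± 0.671 CPM in zinc and 11.7 ± 0.666 CPM in water and MRPL44 at 19.02 ± 0.826 CPM in zinc and 38.1 ± 1.43 CPM in water. MRPL18, whose mRNA also gives a cytosolic form under stress, was at 252, 231 and 218 CPM in the zinc libraries, against 73.6, 73.3 and 74.1 CPM in the water libraries, the reverse of most of its list.

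Noncoding and translation genes were mixed. Of 26 small nucleolar RNA host genes 12 rose and 9 fell, with SNHG17 at 153 ± 18.1 CPM in zinc and 64.3 ± 4.01 CPM in water and SNHG19 at 4.301 ± 0.208 CPM in zinc and 9.06 ± 0.616 CPM in water. GAS5 did not pass. Of 21 long noncoding RNAs 12 rose and 5 fell. MIR17HG, host of a cluster of growth-linked miRNAs, was at 53.8 ± 2.24 CPM in zinc and 18.9 ± 0.5305 CPM in water, and MIR34AHG was at 8.19 ± 0.274 CPM in zinc and 22.4 ± 1.93 CPM in water. Of 23 cytosolic tRNA synthetases 11 rose and 10 fell, against 9 and 12 with library size alone, led by CARS at 133 ± 6.797 CPM in zinc and 50.4 ± 1.28 CPM in water and GARS at 479.5 ± 10.9 CPM in zinc and 236 ± 12.2 CPM in water. Of 38 translation initiation genes 14 rose and 14 fell. PPP1R15A, which brings a phosphatase to eIF2, was at 704, 666 and 660.0 CPM in the zinc libraries, against 39.3, 40.2 and 41.99 CPM in the water libraries, and the eIF2 kinase gene EIF2AK3 was at 73.1 ± 3.59 CPM in zinc and 15.2 ± 0.231 CPM in water. EIF1 and EIF5, which control start codon choice, had log2 fold changes of 0.85 and 0.96. EIF2S3 and EIF3A did not pass.

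Iron and heme genes were mostly lower. Of 22 iron and heme genes 16 fell and 4 rose. The ferritin light chain FTL was at 1730.0, 1707 and 1584 CPM in the zinc libraries, against 703, 716 and 696 CPM in the water libraries, and HMOX1 rose as given above. CPOX and PPOX, enzymes of heme synthesis, fell to 39.2 ± 2.19 CPM in zinc, against 71.8 ± 3.38 CPM in water for CPOX and 9.94 ± 1.53 CPM in zinc, against 18.3 ± 1.19 CPM in water for PPOX. Of 14 copper handling genes 4 rose and 6 fell, with 4 and 4 at a minimum of 5 CPM in 3 libraries. ATP7B, a copper pump, fell to 29.3 ± 1.31 CPM in zinc, against 41.4 ± 0.562 CPM in water, and SCO1, which carries copper to cytochrome oxidase, to 49.4 ± 2.32 CPM in zinc, against 83.05 ± 3.69 CPM in water. MTF1, placed in this list as the metal sensor, rose to 68.97 ± 4.14 CPM in zinc, against 36.1 ± 1.49 CPM in water. ATOX1 and COX17 did not pass. Of 12 SLC39 zinc importers 7 fell and none rose (1 without zinc replicate 1 or without water replicate 3). SLC39A10 was at 38.6 ± 2.98 CPM in zinc and 74.3 ± 2.06 CPM in water and SLC39A3 at 12.2 ± 0.359 CPM in zinc and 24.5 ± 1.19 CPM in water. Of 10 SLC30 exporters 6 rose and none fell. Over the main and alternative settings 0 to 2 importers rose and 5 to 8 fell, and 4 to 6 exporters rose and 0 to 1 fell. SLC39A14 and SLC39A7 did not pass, with edgeR adjusted p of 0.0687 and 0.141. Of 19 selenoprotein and selenium genes 9 rose and 6 fell, none by 2-fold, against 6 and 6 without zinc replicate 3 and 4 and 7 with library size alone, with SEPHS2 at 69.3 ± 1.72 CPM in zinc and 122 ± 5.13 CPM in water.

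Mitochondrial and nucleotide synthesis enzymes were more often lower than higher, by less than 2-fold in most cases. Of 29 tricarboxylic acid cycle genes 18 fell and 1 rose, with a median of -0.14. DLAT and DLD of the pyruvate dehydrogenase complex had log2 fold changes of -0.60 ± 0.033 and -0.61 ± 0.031, and PDP2, its phosphatase, of -0.86 ± 0.051. CS and IDH3B did not pass. Of 41 nuclear-encoded complex I genes 21 fell and 1 rose (2 without water replicate 2), with a median of -0.10. Of 36 mitochondrial import and dynamics genes 22 fell and 5 rose. TIMM22, an inner membrane translocase, was at 18.4 ± 0.6704 CPM in zinc and 38.7 ± 1.09 CPM in water. The mitochondrial chaperonin genes HSPD1 and HSPE1 rose, to 3167 ± 84.1 CPM in zinc, against 1511 ± 40.3 CPM in water for HSPD1 and 139 ± 3.4 CPM in zinc, against 70.8 ± 3.66 CPM in water for HSPE1. Of 26 purine and pyrimidine synthesis genes 19 fell and 1 rose, with DHODH at 10.1 ± 1.05 CPM in zinc and 19.4 ± 1.39 CPM in water and UMPS at 72.5 ± 5.89 CPM in zinc and 128 ± 3.21 CPM in water. HPRT1 and APRT of the salvage route did not pass.

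Other metabolic lists held a few large changes. Of 31 glycolysis and pentose phosphate genes 9 rose, a share near the 29.4% of all tested genes called higher, and 13 fell. TXNIP, which binds thioredoxin and limits glucose uptake, was at 2.85, 2.29 and 2.41 CPM in the zinc libraries, against 11.6, 10.9 and 11.3 CPM in the water libraries. PKM and TPI1 did not pass. Of 14 aldehyde dehydrogenases 7 fell and 3 rose, ALDH1B1 by far the most, and ALDH18A1, an enzyme of proline synthesis, was at 206 ± 4.84 CPM in zinc and 316 ± 2.395 CPM in water. Of 23 serine, glycine and one-carbon genes 11 rose and 9 fell. ASNS, asparagine synthetase, was at 34.05, 31.6 and 27.4 CPM in the zinc libraries, against 2.46, 2.48 and 2.33 CPM in the water libraries, and CTH, which makes cysteine from cystathionine, was at 112, 109 and 118 CPM in the zinc libraries, against 8.21, 9.57 and 9.24 CPM in the water libraries. The groups lay more than 8-fold apart in both genes. Of 34 glutathione, thioredoxin and peroxide genes 12 rose and 7 fell, and with library size alone 16 fell. The cystine importer SLC7A11 was at 192 ± 12.3 CPM in zinc and 21.4 ± 0.999 CPM in water and GCLM, a subunit of the enzyme that starts glutathione synthesis, was at 242 ± 16.9 CPM in zinc and 65.3 ± 1.54 CPM in water. Of 27 amino acid transporters 12 rose and 7 fell, with SLC38A2 at 769 ± 14.4 CPM in zinc and 318 ± 9.599 CPM in water. Of 17 polyamine genes 8 rose and 7 fell, against 7 and 7 without zinc replicate 3 or without water replicate 2, with SAT1, which acetylates polyamines for export, at 192 ± 18.04 CPM in zinc and 64.1 ± 1.22 CPM in water. Of 34 fatty acid and lipid droplet genes 12 rose and 17 fell, with ACSL4 at 141 ± 7.31 CPM in zinc and 66.2 ± 2.15 CPM in water and CPT2 at 11.5 ± 1.01 CPM in zinc and 20.6 ± 1.02 CPM in water.

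Autophagy genes rose more often than they fell, and membrane tethering complexes showed the reverse. Of 38 tested autophagy genes 21 rose and 7 fell, 6 and 1 by at least 2-fold. SESN2, a leucine sensor that restrains mTORC1, was at 548, 514 and 534 CPM in the zinc libraries, against 39.95, 39.4 and 37.6 CPM in the water libraries. GABARAPL1, an ATG8 protein of the autophagosome, was at 91.2, 86.5 and 70.8 CPM in the zinc libraries, against 23.6, 25.6 and 23.6 CPM in the water libraries. ULK1, the kinase that starts autophagy, was at 146, 151 and 125 CPM in the zinc libraries, against 58.7, 60.5 and 51.6 CPM in the water libraries. The zinc libraries were higher throughout, with replicate 3 the lowest for GABARAPL1 and ULK1. DDIT4, which also restrains mTORC1, was at 42.9, 38.9 and 42.1 CPM in the zinc libraries, against 9.901, 3.896 and 4.05 CPM in the water libraries, with water replicate 1 well above the other water libraries. Of 38 lysosome and V-ATPase genes 16 rose and 8 fell, with the transcription factor TFE3 at 129.5 ± 3.42 CPM in zinc and 52.4 ± 1.16 CPM in water and the cholesterol transporter NPC1 at 79.8 ± 7.54 CPM in zinc and 41.2 ± 1.48 CPM in water. Of 27 HOPS, CORVET and BLOC genes, which tether and sort endosomes, 16 fell and 5 rose, and the number that rose was 3 without zinc replicate 2 or without water replicate 2 or 3. VPS18 was at 9.55, 10.4 and 9.79 CPM in the zinc libraries, against 29.7, 32.2 and 32.9 CPM in the water libraries and HPS6 was at 10.2, 11.6 and 8.72 CPM in the zinc libraries, against 37.3, 40.8 and 40.3 CPM in the water libraries. Of 32 COPI, COPII and Golgi genes 11 rose and 10 fell, none by 2-fold, and with library size alone 10 rose and 13 fell. Of 25 ubiquitin genes and adaptors 16 rose and 6 fell, with ZFAND2A at 96.2 ± 5.48 CPM in zinc and 11.1 ± 0.437 CPM in water. Of 51 deubiquitinases 20 rose and 24 fell, with USP54 at 10.6 ± 1.68 CPM in zinc and 27.7 ± 1.04 CPM in water.

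Beta-tubulin genes moved in both directions. Of 28 tubulin and microtubule genes 13 fell and 8 rose. TUBB was at 902, 903 and 913 CPM in the zinc libraries, against 1760.0, 1707 and 1707 CPM in the water libraries, and TUBB4B was at 447, 446 and 458 CPM in the zinc libraries, against 835, 857 and 840.1 CPM in the water libraries. Both beta-tubulins fell, with log2 fold changes of -0.93 ± 0.024 and -0.91 ± 0.026. TUBB3, the neuronal beta-tubulin, was at 3.25, 2.697 and 4.23 CPM in the zinc libraries, against 0.2303, 0.198 and 0.113 CPM in the water libraries, low in every library but apart between groups. Of 33 actin genes and regulators linked to serum response factor 12 rose and 9 fell, with FHL2 at 47.2 ± 2.42 CPM in zinc and 23.9 ± 1.404 CPM in water. With library size alone 11 rose and 12 fell. CNN1 passed with 0.67 ± 0.22 but missed the threshold without replicate 1 of either group. Of 43 integrins and matrix proteins 7 rose and 14 fell, with THBS1, an adhesive glycoprotein, at 7.49 ± 1.18 CPM in zinc and 2.81 ± 0.379 CPM in water and ITGA2 at 11.3 ± 0.5902 CPM in zinc and 19.6 ± 0.465 CPM in water. Of 42 primary cilium genes 6 rose and 16 fell, none by 2-fold, and with at least 5 CPM in 3 libraries 12 rose and 12 fell.

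Lists of channel and neuronal genes held members that rose and members that fell. Of 39 potassium channels 12 rose, a share near the 29.4% of all tested genes called higher, and 10 fell, 5 and 2 by at least 2-fold, with KCNG3 at 22.04 ± 2.38 CPM in zinc and 4.71 ± 0.655 CPM in water and KCNJ2 at 2.23 ± 0.2102 CPM in zinc and 0.912 ± 0.164 CPM in water. Of 35 synaptic vesicle and neuronal activity genes 14 rose and 7 fell. ARC, an activity-regulated capsid-like protein, was at 19.7, 18.8 and 17.9 CPM in the zinc libraries, against 2.49, 2.21 and 2.58 CPM in the water libraries. VGF, a secreted neuropeptide precursor, was at 1.88 ± 0.3699 CPM in zinc and 0.618 ± 0.188 CPM in water, and VAMP1 fell to 6.43 ± 0.616 CPM in zinc, against 13.2 ± 1.56 CPM in water. Of 41 calcium channels, pumps and sensors 18 rose and 11 fell, with CACNB4 at 21.98 ± 1.71 CPM in zinc and 9.79 ± 0.389 CPM in water, MCU, the mitochondrial uniporter, at 69.01 ± 3.37 CPM in zinc and 44.95 ± 2.77 CPM in water and ATP2A3 at 3.96 ± 0.512 CPM in zinc and 7.88 ± 0.432 CPM in water. Of 12 crystallins and eye-linked genes 3 rose and 2 fell, against 2 and 2 without water replicate 3, with 1 or 2 lower without each library in turn, with CRYGS at 7.58 ± 1.05 CPM in zinc and 2.63 ± 0.121 CPM in water.

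Cell death, cell cycle and innate immune genes were mixed. Of 20 BCL2 family genes 10 rose and 5 fell. MCL1 rose as given above, as did the pro-apoptotic BBC3 at 35.6 ± 2.72 CPM in zinc and 15.4 ± 0.984 CPM in water, whereas the pro-apoptotic BMF fell to 8.86 ± 0.364 CPM in zinc, against 20.1 ± 0.577 CPM in water. Of 37 cyclins, CDK inhibitors and related genes 19 rose and 15 fell, 4 of them at least 2-fold higher. CDKN1A, a CDK inhibitor, was at 103, 92.2 and 90.9 CPM in the zinc libraries, against 31.2, 31.3 and 26.5 CPM in the water libraries. WEE1, which holds CDK1 inactive, was at 152 ± 3.09 CPM in zinc and 57.03 ± 3.001 CPM in water, and CCND2 was at 66.7 ± 1.598 CPM in zinc and 25.2 ± 0.838 CPM in water. Of 47 DNA damage response and repair genes 10 rose and 23 fell. GADD45B was at 172, 165 and 106 CPM in the zinc libraries, against 35.2, 33.6 and 34.5 CPM in the water libraries and GADD45A at 51.2, 50.4 and 34.5 CPM in the zinc libraries, against 16.8, 17.8 and 17.3 CPM in the water libraries, with replicate 3 the lowest zinc library for both. MSH6, a mismatch repair protein, fell to 151 ± 6.98 CPM in zinc, against 262 ± 10.7 CPM in water. Of 35 interferon-stimulated and innate sensor genes 10 rose and 14 fell, 2 and 6 by at least 2-fold. CGAS, the sensor of cytosolic DNA, was at 1.83, 2.46 and 2.12 CPM in the zinc libraries, against 0.307, 0.165 and 0.0567 CPM in the water libraries. IFIT1 was at 0.441, 0.444 and 0.521 CPM in the zinc libraries, against 3.42, 2.61 and 2.44 CPM in the water libraries and IFIT5 at 16.2, 17.6 and 15.2 CPM in the zinc libraries, against 49.97, 48.2 and 49.1 CPM in the water libraries. ISG15 rose, at 7.21 ± 0.342 CPM in zinc and 2.41 ± 0.113 CPM in water. With library size alone 5 members rose and 16 fell, without zinc replicate 1 the number that rose was 6, and with at least 5 CPM in 3 libraries 12 rose and 9 fell.

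Gene families were also scanned by the letters of their symbols, for 234 families of at least 10 tested genes. The largest shares at least 2-fold higher were in the histone (HIST, 26 of 35), DNAJB (7 of 11), HSPA (8 of 18), RF (7 of 16, short RNAs named by Rfam) and olfactory receptor (OR, 6 of 14) families. The largest shares at least 2-fold lower were in HOXA (7 of 13), ZBED (4 of 10), SNORD (8 of 23), NOL (3 of 10) and POU (3 of 10). Of all tested genes 9.17% were at least 2-fold higher and 4.75% at least 2-fold lower. The family ZNF, named here after its values were seen, with 521 tested genes the broadest, had 279 members called higher and 119 lower, with a median log2 fold change of 0.26. Among all tested genes 29.4% were called higher and 32.0% lower. Of the ZNF genes 61 (11.7%) were at least 2-fold higher, a share near that of all tested genes, and 11 (2.11%) at least 2-fold lower. Families were ranked by these same values, so the ranking is a description.

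Short genes with few exons changed more often than long genes with many. Of 295 protein-coding genes with 1 exon in the longest annotated transcript, 15.9% were at least 2-fold higher and 20% at least 2-fold lower. Among 3252 genes with over 16 exons the shares were 4.27% and 1.29%. Genes spanning under 5 kb had shares of 11.7% and 11%, and those over 200 kb had 3.39% and 1.02%. The level in water moved with these properties, the median being 2.94 CPM for 1 exon and 39.6 CPM for over 16 exons, and its part was not tested. By level alone the share at least 2-fold higher was 46.1% under 0.1 CPM, 18.4% at 0.1 to 1 CPM, 6.78% at 1 to 10 CPM and 2.85% at 10 to 100 CPM. The share under 0.1 CPM describes the filter as well as the response, as stated above. The share at least 2-fold lower was 7.80% at 0.1 to 1 CPM, 6.88% at 1 to 10 CPM and 3.29% at 10 to 100 CPM. By gene type the shares at least 2-fold higher and lower were 6.97% and 3.66% for protein-coding genes, 16.1% and 9.43% for antisense genes and 15.2% and 8.68% for lincRNAs. Counts of antisense genes ignore strand and can include reads of the gene opposite.

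**Figure D5:**
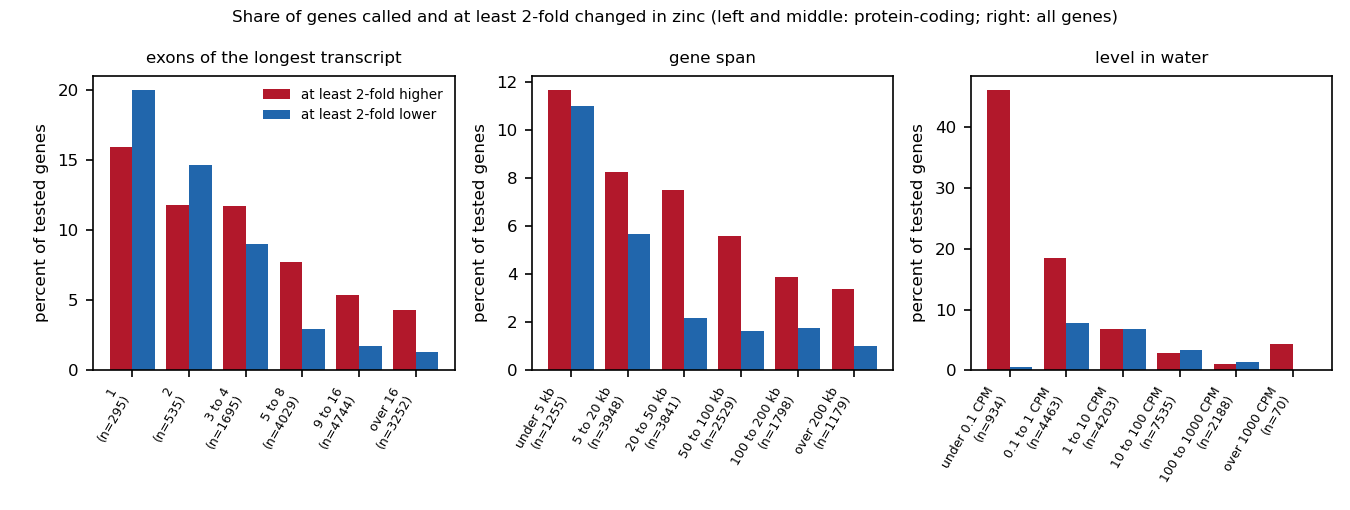
Percent of tested genes called and at least 2-fold higher (red) or lower (blue) in zinc, by number of exons and span of protein-coding genes and by the level in water of all tested genes. Both shares are largest for genes with 1 exon, at 15.9% and 20%, and both decline toward many exons, while the share at least 2-fold higher is 46.1% under 0.1 CPM. Genes under 0.1 CPM in water are tested only when high in another group.

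Promoter letters were compared between sets of changed genes. A RefSeq promoter, from 250 bases before to 50 after the start, was matched to 11796 of 14550 tested protein-coding genes (81.1%). Among 288 genes at least 4-fold higher 9.72% held the AP-1 site TGACTCA, against 3.01% of all tested genes with a promoter and 4.95% of the 35116 promoters of the table. The letters TATAAA were in 21.9% of the 288, against 6.26% and 11.5%. The heat shock element pair was in 16.7%, against 10.3% and 13.5%. The metal response element core was in 32.3%, against 39.1% and 29.6%, and the antioxidant response element core TGACNNNGC in 14.6%, against 14.9% and 13.3%. CArG boxes were in 1.39%, against 1.12% and 1.29%. Among 407 genes at least 2-fold lower 2.46% held TGACTCA, 5.16% TATAAA and 42.5% the metal response element core. Both strands were searched. These shares are descriptions without a test.

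Genes next to strongly raised genes were raised more often than genes in general, with no account taken of their level in water. Of 122 tested genes that start within 10 kb downstream, on the same strand, of 1 of 667 genes at least 4-fold higher, 40 were at least 2-fold higher (32.8%, against 9.17% of all tested genes) and 3 at least 2-fold lower. Within 5 kb it was 24 of 68 (35.3%). On the strand-specific counts it was 35 of 115 (30.4%, against 8.37%). On the upstream side, a comparison added after seeing the data and run on strand-specific counts, 48 of 176 genes that end within 10 kb of a raised gene were at least 2-fold higher (27.3%). MT1F, a metallothionein 4490 bases downstream of MT1B, was at 8.69 ± 1.58 CPM in zinc and 0.36 CPM in water, a log2 fold change of 4.53 ± 0.19. VTRNA1-3, a vault RNA downstream of VTRNA1-2, was at 2.33 ± 0.545 CPM in zinc and 0.127 CPM in water. RN7SL473P, MIR93 and MT1H were below 1 CPM in zinc, and of these MT1H did not pass. Some raised neighbours were very low in water, such as RN7SL473P at 0.0095 CPM and MIR93 at 0.026 CPM. Of all tested genes under 0.1 CPM in water 46.1% were at least 2-fold higher, and such genes are tested only when high in another group. Other raised neighbours are relatives of the gene beside them, such as MT1F and HSPA1B. The parts of level and of relatedness were not tested.

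Set against the cadmium libraries, the same zinc libraries differed for 10147 of 19393 genes (52.3%), 4854 higher in zinc and 5293 lower. The doses differ, 250 uM ZnCl2 and 50 uM CdCl2, so these values describe the 2 treatments as given. KIAA1324 was at 12.2, 10.6 and 12.7 CPM in zinc, against 0.7203, 0.581 and 1.21 CPM in cadmium. SLC30A2 was at 23.9, 25.2 and 18.3 CPM in zinc, against 4.197, 4.96 and 4.22 CPM in cadmium. ZNF574, a zinc finger protein, was at 43.4, 48.3 and 48.5 CPM in zinc, against 12.2, 10.3 and 9.72 CPM in cadmium. All 3 were higher in zinc, and their log2 differences, zinc over cadmium, were 3.80 ± 0.14, 2.33 ± 0.12 and 2.12 ± 0.064. SPACA6 and NHLH1 were higher in zinc by 2.55 and 1.79 on the log2 scale. SMAD7, an inhibitor of TGF-beta signalling, was at 30.2, 32.2 and 29.6 CPM in zinc, against 202, 196 and 189 CPM in cadmium. ID3 was at 27.6, 32.5 and 19.7 CPM in zinc, against 195, 173 and 175 CPM in cadmium. FOSB was at 51.8, 53.3 and 70.9 CPM in zinc, against 351, 324 and 351 CPM in cadmium. These 3 were lower in zinc, as were ARHGAP30 and RAB39B, with log2 differences of -3.32 and -2.66. A call and no overlap between groups were part of the rule that chose all 10, and their edgeR adjusted p was 7.04e-14 or less. This comparison does not set zinc against water, so a difference need not be a change in zinc. The log2 fold changes, zinc over water, were 6.345 for KIAA1324, 0.741 for SPACA6, 6.29 for SLC30A2, 0.485 for ZNF574 and 4.68 for NHLH1. For ARHGAP30, ID3, SMAD7, RAB39B and FOSB they were -0.259, -1.38, -0.118, 1.41 and 5.445.

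The zinc response of wild-type cells differed from that of the LATS1/2 knockout line for 4767 genes (24.6%) in the interaction test, 2038 with a more positive and 2729 with a more negative log2 change in wild type. DUSP4 was at 11.1 ± 0.514 CPM in zinc and 44.6 ± 0.653 CPM in water in wild type, and at 42.6 ± 0.4098 CPM in zinc and 36.4 ± 0.778 CPM in water in the knockout line. The difference was -2.23 on the log2 scale (edgeR adjusted p = 1.33e-22), as DUSP4 fell in wild type and its zinc mean was the higher one in the knockout line.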

How the data were processed

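Per the labels' protocols, TRIzol was used for RNA and Illumina's stranded TruSeq mRNA kit for libraries. The authors deposited raw read counts per Ensembl gene, both as 1 table for all samples and as sample files. STAR and the builds hg38 and GRCh38.p13 are named in the submitters' processing notes, with annotation, counter and versions not given in the sources used here. The table holds the counts of both strands together, so overlapping and antisense genes cannot be told apart, and the strand column with most reads in each sample file served as an alternative. How reads shared by near-identical genes (HSPA6/HSPA7, HSPA1A/HSPA1B, metallothioneins, histones) were counted is not stated.

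Symbols and coordinates came from GENCODE 29 (GRCh38), which held 58216 of 58336 gene IDs. The 19393 genes passing filterByExpr (minimum count 10) were scaled by TMM and tested with edgeR 4.0.16 (glmQLFit, glmQLFTest) on a model of 6 groups fitted to all 18 libraries, with 12 residual degrees of freedom and a median biological coefficient of variation of 3.93%. P-values were adjusted by Benjamini-Hochberg over all tested genes within a comparison, and a call is an adjusted p under 0.05. The script was run on simulated counts, in which far fewer genes changed than were called here. That run cannot show the error rate in these data. R 4.3.3, limma 3.58.1, DESeq2 1.42.0, Python 3.11.15, pandas 2.3.3, numpy 2.4.6, scipy 1.17.1 and matplotlib 3.10.9 were used.

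Of 2049 entries in 71 gene lists 2048 were found, and lists overlap in part. The lists, the named-gene rule and the comparison itself were chosen with earlier results of these data known. Named genes were the 15 highest and 15 lowest log2 fold changes, and the 8 highest and 8 lowest among genes of at least 100 CPM in water, among called genes with a symbol, a mean of at least 5 CPM and no overlap between groups. Further named genes were the 8 with the most CPM in zinc among called genes under 0.1 CPM in water and, in each list, up to 4 called members with the largest change at a mean of at least 1 CPM and up to 2 that did not pass. For the other comparisons the 5 highest and 5 lowest called genes with a symbol were taken, leaving out genes averaging under 5 CPM. Of families and downstream neighbours the first 5 were taken. A few genes that this rule names are not reported here. No set test was run. Alternatives were DESeq2, library size alone, RLE factors, other filters on low counts, the 6 libraries alone, the strand-specific counts, a replicate block and leaving out each library.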

Additional observations from a re-analysis of the deposited data

Results flagged for a closer look

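The zinc response of 10 genes differed between wild type and the LATS1/2 knockout line, by edgeR's test of the difference of the log2 changes (wild type minus knockout). These are the 5 highest and 5 lowest of the called genes with a symbol. Genes averaging under 5 CPM across the groups compared were left out of this ranking. DEPP1 was at 0.858 ± 0.113 CPM in zinc and 4.74 ± 0.4502 CPM in water in wild type, and at 3.13 ± 0.277 CPM in zinc and 143 ± 1.76 CPM in water in the knockout line, a difference of 3.07 (adjusted p = 5.16e-13). DDIT4 was at 41.3 ± 2.09 CPM in zinc and 5.95 ± 3.42 CPM in water in wild type, and at 12.3 ± 0.855 CPM in zinc and 12.3 ± 0.711 CPM in water in the knockout line, a difference of 2.86. TRIB3, a pseudokinase induced by stress, was at 141 ± 14.4 CPM in zinc and 21.4 ± 0.488 CPM in water in wild type, and at 30.5 ± 1.31 CPM in zinc and 27.5 ± 1.95 CPM in water in the knockout line, a difference of 2.58. BMP2 differed by 2.82, but was under 0.4 CPM in every wild-type library. In the knockout line it was at 26.8 ± 1.73 CPM in zinc and 58.2 ± 1.49 CPM in water. PCDH9 differed by 2.39, at 25.66 ± 1.454 CPM in zinc and 24.97 ± 1.045 CPM in water in wild type. In the knockout line it was at 37.66 ± 2.549 CPM in zinc and 192.3 ± 4.365 CPM in water.

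In the other direction HSPA1A differed by -3.36, at 15.3 ± 1.496 CPM in zinc and 1.69 ± 0.313 CPM in water in wild type and 171 ± 19.2 CPM in zinc and 1.87 ± 0.122 CPM in water in the knockout line, and its reads may be shared with HSPA1B. HSPA6 differed by -2.85, at 278 ± 67.1 CPM in zinc in wild type and 1328 ± 113 CPM in zinc in the knockout line. MYC differed by -2.92, with 18.4 ± 1.43 CPM in zinc and 38.2 ± 0.432 CPM in water in the knockout line. TRIB1 differed by -2.82 and DUSP4 by -2.23. TRIB1 was at 34.5 ± 8.58 CPM in zinc and 72.3 ± 0.931 CPM in water in wild type, and at 57.3 ± 1.15 CPM in zinc and 17.1 ± 0.619 CPM in water in the knockout line.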

How the results depend on the processing

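Without each library in turn, 11286 to 11515 genes were called, 1802 to 1868 at least 2-fold higher and 920 to 975 at least 2-fold lower. DESeq2 called 11190 genes, with 1745 and 845 at least 2-fold higher and lower. With the 6 libraries fitted alone 10981 genes were called, 1465 and 739 at least 2-fold higher and lower. With at least 5 CPM in 3 libraries, 12011 genes were tested and 567 and 324 were at least 2-fold higher and lower, fewer because fewer genes were tested. With library size alone the median log2 fold change was -0.075 and 40.6% of calls were higher, against 47.9%. The strand-specific counts turned the sign of 87 of the 11892 calls. Same-numbered replicates of the wild-type zinc and water groups did not deviate together (correlations of deviations -0.075, -0.0071 and 0.051). These values cannot show whether same-numbered libraries share a day or culture. With the replicate block 12025 genes were called, 1779 and 921 at least 2-fold higher and lower, with 10320 against cadmium and 5072 between genotypes. No named gene reversed. HOXA10, PAOX, CNN1, CACNA1C, BFSP1 and COL3A1 missed the threshold under at least 1 alternative. Of 3696 counts of list members 161 moved by over 1.5 times, mostly counts of a few genes. Changes under 2-fold rest on the small spread between these libraries, and genes under 1 CPM on few reads.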
